A study of Mus musculus with 28 samples.

Results

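The 818 chromatin regions described here carried more H3K27ac in mouse embryonic stem cells (mESCs) treated with 4-hydroxytamoxifen (4HT) than in cells treated with the solvent ethanol (EtOH). They were chosen from 127646 regions by the H3K27ac values themselves. A region was taken when its 4HT value was 2 or more, when that value was at least 2 times the EtOH value, and when the EtOH value was under 4. The rule took 0.641% of all regions and 13.3% of the 6129 regions whose 4HT value was 2 or more. The other 5311 of those regions are called strongly marked regions outside the rule below, and they are the closest set for comparison. Because H3K27ac chose the regions, its values at them are a description and support nothing. Position and a further mark, H2BK120ac, were not used in the choice.

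All groups were mESCs of the genotype FOXD3-iKO, an inducible knockout of the forkhead transcription factor FOXD3, cultured in L2i medium with a labelled treatment time of 24 h. 4HT induces the depletion of FOXD3 in these cells, and EtOH cells are its solvent control. CUT&Tag, which cuts and tags DNA with a transposase tethered by an antibody to a chromatin mark, was used to profile H3K27ac in asynchronous cells, with 2 samples in 4HT and 2 in EtOH. H2BK120ac was profiled in 12 samples, 3 in each of the groups coded TT, TD, ET and ED. The codes are not explained in the labels, and no letter of them is read here as FOXD3 depletion. What drives the knockout and whether the line is a single clone are not stated in the labels. The replicates of a group were merged by the authors into 1 column, so no difference below has a replicate check and no p-value is given. A further 12 samples, of cells sorted by phase, were not analysed here.

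Acetylation of histone tails accompanies active promoters and enhancers. H3K27ac, on histone H3, is the mark most often used to separate active from inactive enhancers, and H2BK120ac, on histone H2B, is another mark of active chromatin. FOXD3 is a pioneer factor of pluripotent cells and of the neural crest, and in mESCs it has been described both as a repressor and as a factor that opens enhancers while holding back their full activation. The naive pluripotency network of mESCs, with Nanog, Klf2, Tfap2c and Zfp42 among its genes, is sustained in medium with inhibitors of MEK and GSK3.

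Values are mean coverage, named CPM in the files, over the covered bases of a region. The commonest value of each column was read as 1 fragment, which gave 0.207 CPM in 4HT and 0.165 CPM in EtOH, and 0.415 CPM in TT, 0.412 CPM in TD, 0.445 CPM in ET and 0.445 CPM in ED. The depths implied by these values were 4823043 fragments in 4HT and 6076552 in EtOH, and 2411661, 2430039, 2245637 and 2247696 fragments in TT, TD, ET and ED. A region with no fragment in a column could hold up to 3 by counting error, which is 1.24 CPM in TT, 1.23 CPM in TD, 1.34 CPM in ET and 1.33 CPM in ED. Fragment numbers of a region below are its value divided by that of 1 fragment. They are a mean pile-up over covered bases, so a wide region can hold more fragments than its number. The 95% counting interval beside a ratio (exact, Clopper-Pearson) takes this pile-up as the count and covers counting error only. In the check of the cell label, 9 of 10 mESC markers had a region with a 4HT value of 2 or more within 50 kb, with Klf4 the exception at 0.695 CPM. No region near 8 fibroblast feeder markers was above 0.780 CPM in 4HT, and no region near 5 primitive endoderm markers was above 0.561 CPM.

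The gaining regions overlapped promoters of very different genes, and 4 of these promoters are shown because the results below return to them. They are the promoter of Foxd3 itself, that of Upp1, which lies under the most strongly marked promoter region of the set, that of the p53 target Aen, and that of Tgif1. The windows run from 250 bases before to 50 after the start site, 5′ to 3′ on the gene's strand, from RefSeq on GRCm38.p6. Capitals mark matches, on either strand, to 5 motifs: the forkhead core TGTTTAC, the SOX core ACAATG, the E-box CACGTG, the KLF box CCACCC and the AP-1 motif TGANTCA. Positions count from the start site at 0. The Foxd3 window is chr4:99656049-99656348 on the plus strand, the Upp1 window chr11:9117758-9118057 on the plus strand, the Aen window chr7:78895677-78895976 on the plus strand and the Tgif1 window chr17:70853483-70853782 on the minus strand.
Foxd3: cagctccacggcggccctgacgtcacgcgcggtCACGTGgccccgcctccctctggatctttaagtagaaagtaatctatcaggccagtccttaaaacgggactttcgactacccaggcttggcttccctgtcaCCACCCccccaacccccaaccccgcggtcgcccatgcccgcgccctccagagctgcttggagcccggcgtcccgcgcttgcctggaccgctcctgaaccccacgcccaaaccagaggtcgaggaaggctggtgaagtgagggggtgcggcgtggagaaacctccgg
Upp1: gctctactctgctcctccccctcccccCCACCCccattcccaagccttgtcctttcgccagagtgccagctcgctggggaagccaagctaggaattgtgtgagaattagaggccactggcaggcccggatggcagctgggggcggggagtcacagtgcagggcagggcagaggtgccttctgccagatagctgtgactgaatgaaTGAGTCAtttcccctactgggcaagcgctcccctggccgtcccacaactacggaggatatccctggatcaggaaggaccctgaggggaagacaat
Aen: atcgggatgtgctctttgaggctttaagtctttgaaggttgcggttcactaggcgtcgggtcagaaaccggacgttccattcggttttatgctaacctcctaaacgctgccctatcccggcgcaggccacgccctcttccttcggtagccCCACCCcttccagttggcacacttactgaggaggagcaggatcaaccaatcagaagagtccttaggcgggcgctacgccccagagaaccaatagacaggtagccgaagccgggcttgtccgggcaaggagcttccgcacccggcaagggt
Tgif1: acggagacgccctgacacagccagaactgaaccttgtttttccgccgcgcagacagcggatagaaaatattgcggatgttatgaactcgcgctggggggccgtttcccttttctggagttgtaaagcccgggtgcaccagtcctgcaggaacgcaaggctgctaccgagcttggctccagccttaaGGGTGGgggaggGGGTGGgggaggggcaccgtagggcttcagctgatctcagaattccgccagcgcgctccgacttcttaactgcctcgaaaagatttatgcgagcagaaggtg
In Foxd3 the E-box began at -217, within the first 81 bases of the window, which the gaining region covered, and a KLF box began at -116. Upp1 held a KLF box at -223 and an AP-1 match at -45. Aen held a KLF box at -100, and Tgif1 had a pair of KLF boxes at -64 and -52. None of the 4 windows held the forkhead letters.

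In all, 90 gaining regions overlapped 121 promoter windows, so some regions overlapped more than 1 window. Such windows are not independent, and whether they share sequence was not checked. The E-box letters were in 15.7% of these windows (19 of 121), against 10.1% of 1272 windows overlapped by strongly marked regions outside the rule and 7.15% of all 32851 windows. AP-1 letters were in 9.09%, against 3.62% and 7.81%. KLF boxes were in 37.2%, against 36.0% and 31.5%, and the SOX core in 9.09%, against 6.92% and 12.6%. The forkhead core was in 1 of 121 windows (0.826%), against 2.04% and 3.65%. These are shares of windows that hold given letters and say nothing of what binds there.

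H3K27ac at the gaining regions was moderate in level. The 4HT values ran from 2.0004 CPM through a median of 2.82 CPM to 11.0 CPM, and the EtOH values of the same regions from 0.170 CPM through 1.14 CPM to 3.91 CPM. As a mean pile-up in fragments this was 10 to 53 with a median of 14 in 4HT, and 1 to 24 with a median of 7 in EtOH. The ratio of 4HT over EtOH had a median of 2.35 and a highest value of 17.96. Many regions lay close to the limit of 2-fold, with 278 regions under a ratio of 2.2, 150 at 3 or more and 37 at 4 or more. The counting interval of the ratio lay wholly above 1 in 317 of the 818 regions (38.8%) and wholly above 2 in 5. The rule holds every ratio at 2 or more, so these counts depend on the choice. They were not made for other regions. With the columns exchanged, the same rule took 36 regions (0.0282%), whose medians were 1.06 CPM in 4HT and 2.28 CPM in EtOH. The columns as a whole were shifted the same way. Over 12712 regions with a mean of 1 CPM or more, the median log2 ratio of 4HT over EtOH was 0.33, and 77.2% of them were higher in 4HT.

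**Figure D1:**
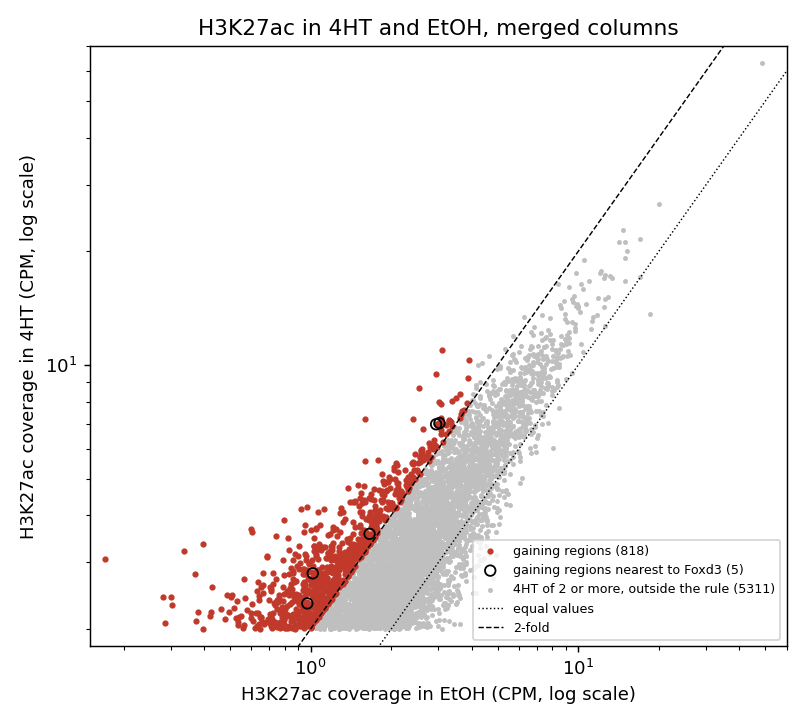
H3K27ac coverage in 4HT (vertical, CPM, log scale) against EtOH (horizontal, CPM, log scale) in regions with a 4HT value of 2 or more, 1 point per region from merged columns. The 818 gaining regions (red) lie on or above the dashed 2-fold line, the 5 nearest to Foxd3 are ringed, and the strongly marked regions outside the rule (grey) lie mostly above the dotted line of equal values.

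The edges of the rule were crowded, and what lies on either side of them was much alike. Just inside the 4HT limit were regions near Numa1 (2.0004 CPM in 4HT), Gk5 (2.001 CPM) and Pdss2 (2.004 CPM), and just outside it were regions near Pak4 (1.999 CPM), Coq10b (1.995 CPM) and Crebbp (1.995 CPM). Regions near Kdm3b, Arrdc3 and Hs6st1 were just inside the 2-fold limit, with ratios of 2.001, 2.002 and 2.002. Regions near Ulk1, Tab1 and Dleu7 were just outside it with ratios of 1.9998. The EtOH limit removed 11 regions. On its inner side were regions near Oas1g (3.91 CPM in EtOH), Trak1 (3.86 CPM) and Fancm (3.83 CPM), and on its outer side regions near Spen (4.00 CPM), Tlr2 (4.03 CPM) and Oas1g again (4.16 CPM).

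Foxd3 was the gene with the most gaining regions, 5 of 11 strongly marked ones among 30 regions within 100 kb of its start site. No other of the 682 nearest genes had as many. Over the genome 13.3% of strongly marked regions were gaining regions. By share other genes stood higher, such as Tfap2c and Smyd3 with 3 of 3 each. The count rests on the values that chose the regions, and a link to FOXD3 depletion was not tested. With H3K27ac median centring 3 of the 5 passed the rule, among 349 regions in all, and with quantile normalization 1 passed, among 221. A region downstream of the gene, at chr4:99670116-99670739 and 14128 bp from the start site, had 7.02 CPM in 4HT and 3.03 CPM in EtOH, a ratio of 2.32 (1.31 to 4.48). A region 19391 bp upstream, chr4:99636741-99637075, had 6.97 CPM in 4HT and 2.94 CPM in EtOH, a ratio of 2.37 (1.31 to 4.48). These 2 regions were the high ones in both columns, with a pile-up of 34 fragments each in 4HT and 18 each in EtOH. A pair of regions 5566 bp and 6031 bp upstream held 3.57 CPM and 2.34 CPM in 4HT, and 1.66 CPM and 0.972 CPM in EtOH. The promoter region, centred 241 bp upstream of the start site, had 2.81 CPM in 4HT and 1.02 CPM in EtOH, with a ratio of 2.76 (1.06 to 9.33). For the pair the counting intervals were 0.926 to 5.23 and 0.783 to 7.61, so at this depth their difference from 1 was not detectable.

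Most other regions of the locus were also higher in 4HT. All 11 regions with a 4HT value of 2 or more were higher in 4HT, with ratios of 1.36 to 2.76, and so were 90.6% of all 6129 such regions, so the shared direction is near the background. Over all 30 regions 19 were higher in 4HT, 10 were lower and 1 had no coverage. Their summed coverage was 46.3 CPM in 4HT and 26.2 CPM in EtOH. The upstream region belonged to a group of 4 regions within 1813 bp, and the other members of the group reached 3.36, 3.75 and 4.01 CPM in 4HT, against 1.95, 2.65 and 2.55 CPM in EtOH, below the 2-fold limit. The regions centred 1121 bp and 1548 bp downstream of the start site had no coverage in 4HT. In EtOH they had 0.224 CPM and 0.165 CPM, a pile-up of about 1 fragment each.

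H2BK120ac at Foxd3 was higher in ET than in ED at most of the strongly marked regions. The region 19391 bp upstream had 2.27 CPM in TT, 0.674 CPM in TD, 3.16 CPM in ET and 1.53 CPM in ED. In the 4 regions of that group the ratio of ET over ED was 1.57 to 5.23. The counting interval of the gaining region among them did not lie above 1, and intervals are not given for the others. Regions this close can share fragments. The downstream region at 14128 bp had 3.98 CPM in TT, 3.05 CPM in TD, 2.93 CPM in ET and 2.17 CPM in ED, close to even across the columns. The Foxd3 promoter region was almost bare of the mark, with 0.278 CPM in TT, 0.474 CPM in TD, 0.223 CPM in ET and none in ED. Of the 11 strongly marked regions, 9 were higher in ET than in ED and 7 higher in TT than in TD. Among regions whose 4 columns averaged 0.4 CPM or more, these shares were 55.6% and 42.0% of strongly marked ones outside the rule. They were 61.4% and 49.5% of gaining regions. The 11 were not filtered in this way, and the promoter region, which is 1 of the 9, averaged less than 0.4 CPM. Summed over the 30 regions, H2BK120ac was 19.4 CPM in TT, 15.6 CPM in TD, 31.9 CPM in ET and 22.3 CPM in ED.

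**Figure D2:**
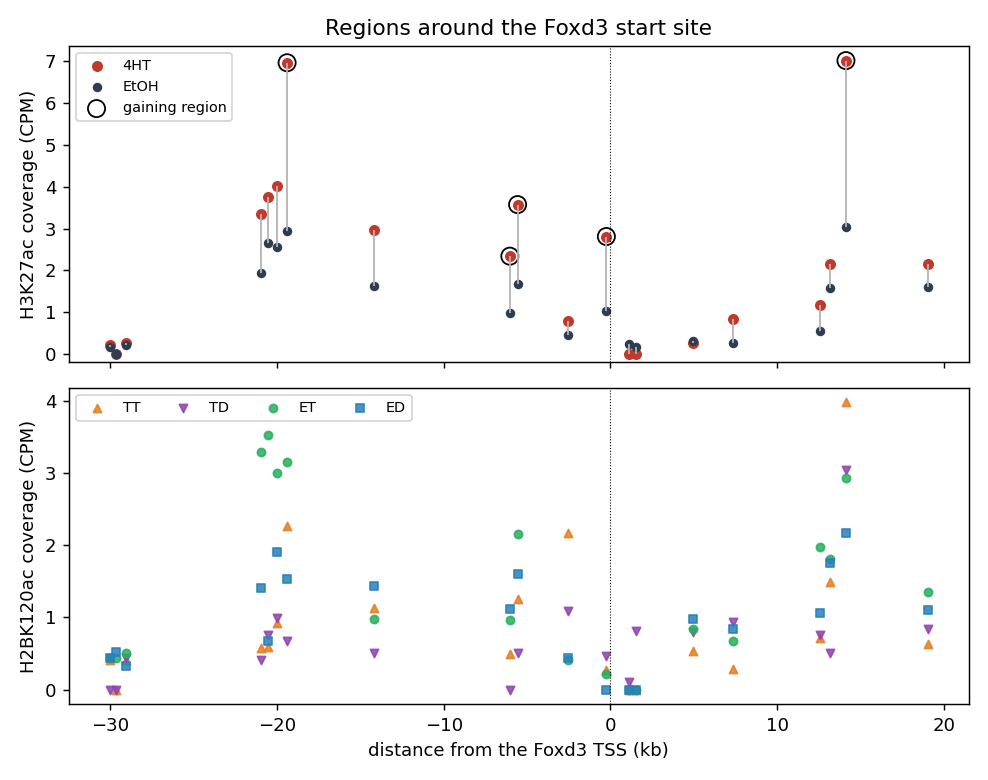
Regions within about 30 kb of the Foxd3 start site, by distance in kb. The upper panel shows H3K27ac coverage in 4HT (red) and EtOH (dark), with the 5 gaining regions ringed, and the lower panel H2BK120ac coverage in TT, TD, ET and ED, all in CPM from merged columns. The high points 19391 bp upstream (6.97 CPM in 4HT, 2.94 CPM in EtOH) and 14128 bp downstream (7.02 CPM in 4HT, 3.03 CPM in EtOH) stand out.

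The gaining regions were mostly distal. Of 818, 129 (15.8%) lay within 1 kb of a protein-coding start site, against 22.3% of strongly marked regions outside the rule and 14.1% of all regions. The deficit was at the start sites themselves, as 77 gaining regions (9.41%) lay within 0.25 kb, against 14.99% outside the rule and 8.83% of all regions. The excess was at 5 to 20 kb, with 241 gaining regions (29.5%), against 23.8% and 21.1%. The median distance was 16486.5 bp, against 15934 bp outside the rule and 28585.5 bp over all regions. A gene span held 431 of them (52.7%), against 48.6% and 52.6%. They were also narrow, with a median width of 282 bp, against 472 bp outside the rule and 252 bp over all regions, and a narrow region has fewer bases in its mean. Width was also taken by ratio in regions with a mean H3K27ac of 1 CPM or more. The median was 447 bp at ratios of 1.5 to 2, 330 bp at 2 to 2.5 and 264 bp at 3 or more. At the low end it was 239 bp under 0.5, against 449 bp at 0.8 to 1. The 36 regions taken with the columns exchanged had a median width of 175 bp. Regions were thus narrow at both ends of the ratio, and narrowness was not particular to a gain in 4HT.

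**Figure D3:**
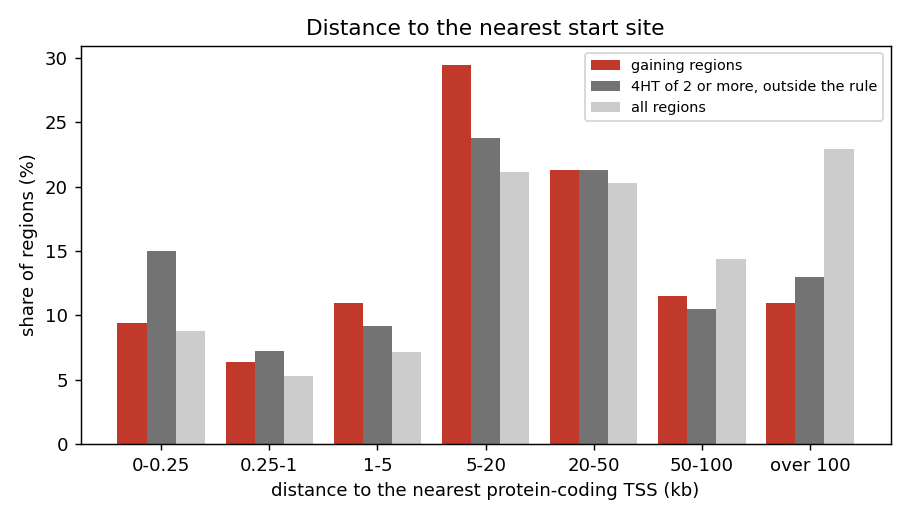
Share of regions (%) by distance to the nearest protein-coding start site (TSS, kb), for gaining regions (red), strongly marked regions outside the rule (dark grey) and all regions (light grey). Gaining regions were fewer than strongly marked regions outside the rule at 0 to 0.25 kb (9.41%, against 14.99%) and more at 5 to 20 kb (29.5%, against 23.8%).

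The regions were spread over the genome, and some lay near each other. Of the 818, 78 had another gaining region within 1 kb, 176 within 10 kb and 263 (32.2%) within 50 kb. The same counts were not made for other marked regions, so they show no tendency particular to this set. Regions this close can share fragments and are not independent. Of 682 nearest genes, 578 had 1 gaining region, 79 had 2 and 19 had 3. Chromosome 9 had the highest share, with 64 of its 323 strongly marked regions (19.8%, exact interval 15.6 to 24.6). Among chromosomes other than Y, which had 0 of 2, chromosome 14 had the lowest, with 18 of 192 (9.38%, 5.65 to 14.4). On the X chromosome it was 17 of 97 (17.5%, 10.6 to 26.6). These intervals take regions as independent, which they are not, so they are too narrow. Chromosomes 9 and 14 were picked as the extremes, so their intervals show no excess or deficit. Regions 1 to 10 kb away that did not pass the rule leaned only slightly further to 4HT than others. Their median log2 ratio was 0.36 in 800 regions, against 0.34 in 3810 neighbours of strongly marked regions outside the rule and 0.30 in all 11894 such regions.

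After Foxd3, 5 genes tied with 4 gaining regions each: Actn4, Foxn2, Kcmf1, Mreg and Tns3. Actn4, an actin cross-linker, had 4 of its 8 strongly marked regions in the set. One of them, inside the gene, had 2.08 CPM in 4HT and 0.285 CPM in EtOH, while the region at its start site had 2.53 CPM in 4HT and 2.62 CPM in EtOH. Foxn2, another forkhead gene, had 4 of 7, of which the strongest, inside the gene, had 4.59 CPM in 4HT and 2.19 CPM in EtOH. Kcmf1, a ubiquitin ligase, had 4 of 5, including both regions beside its start site, with 3.59 CPM and 2.69 CPM in 4HT, against 1.75 CPM and 1.21 CPM in EtOH. Mreg, a melanosome transport protein, had 4 of 6, all upstream of its start site and up to 4.87 CPM in 4HT, against 2.38 CPM in EtOH. In Tns3, a focal adhesion protein, the 4 were among 13 strongly marked regions. The highest of these 13 had 8.89 CPM in 4HT and 4.51 CPM in EtOH, above the EtOH limit of 4, so the rule could not take it.

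By 4HT level, the first of the set was an intergenic region, chr9:23563621-23563856, whose nearest start site, 340662 bp away, was that of Bmper, an extracellular modulator of BMP signalling. It had 11.0 CPM in 4HT and 3.10 CPM in EtOH, a ratio of 3.53 (2.05 to 6.29). A region 7682 bp upstream of Oas1g, of the oligoadenylate synthetase family of the interferon response, had 10.3 CPM in 4HT and 3.91 CPM in EtOH. A region 19095 bp upstream of 1700001K19Rik had 9.45 CPM in 4HT and 2.95 CPM in EtOH. These 3 were the highest of the 818 in 4HT. A pair within the span of Trak1, an adaptor for mitochondrial transport, had 9.23 CPM and 8.05 CPM in 4HT, against 3.86 CPM and 3.38 CPM in EtOH. The region in the span of Smg1, the kinase of nonsense-mediated decay, had 8.70 CPM in 4HT and 2.53 CPM in EtOH. The promoter region of Upp1, the uridine phosphorylase whose sequence is shown above, had 8.20 CPM in 4HT and 3.50 CPM in EtOH, and was the sole promoter among the first 10. Regions in Hsd17b12, Zfp704 and Fancm closed the 10, with 8.40, 7.97 and 7.92 CPM in 4HT, against 3.61, 3.02 and 3.83 CPM in EtOH.

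The largest ratios belonged to regions with few EtOH fragments, so their size is imprecise. A region 14012 bp from Rps20, a ribosomal protein gene, had 3.06 CPM in 4HT and 0.170 CPM in EtOH, a pile-up of about 1 fragment. The counting interval of its ratio of 17.96 began at 2.91. Regions near Pja2, a ubiquitin ligase gene, and 64085 bp upstream of Tgif1, a repressor of TGF-beta signalling, had 3.22 CPM and 3.36 CPM in 4HT, against 0.336 CPM and 0.398 CPM in EtOH, and both intervals began at 2.37. These 3 were among the 5 regions whose interval lay wholly above 2. A region 461 bp from the start site of Gtf2a1, a subunit of TFIIA, had 2.44 CPM in 4HT and 0.282 CPM in EtOH. A region in Gsk3b, the kinase that one of the inhibitors in 2i media blocks, had 2.80 CPM in 4HT and 0.371 CPM in EtOH. Regions in or near Utrn, Ralgds, Gm10264, Ostf1 and Actn4 completed the 10, with 4HT values of 2.08 to 3.69 CPM and EtOH values of 0.285 to 0.603 CPM.

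Among 241 genes in 14 lists, 22 were the nearest gene within 50 kb of a gaining region. Over all genes, 634 of 4698 strongly marked regions within 50 kb of a start site were gaining regions (13.5%), and most lists lay near this share. In naive pluripotency it was 7 of 54 and in core pluripotency 3 of 27. The 3 regions of Tfap2c, the AP-2 gamma gene of naive cells, trophectoderm and germline, were all its strongly marked regions, with 4.17, 2.68 and 2.67 CPM in 4HT, against 2.08, 1.01 and 0.869 CPM in EtOH. Tfap2c accounts for 3 of 4 in the trophectoderm list. At Nanog and Klf2 the strongest regions had EtOH values above the limit of 4, so the rule could not take them. At Nanog, the homeodomain factor, the gaining region 11893 bp upstream had 2.16 CPM in 4HT and 0.874 CPM in EtOH, while the region at -4725 bp, outside the rule, had 11.6 CPM in 4HT and 9.01 CPM in EtOH. At Klf2 the stronger gaining region had 3.67 CPM in 4HT and 1.74 CPM in EtOH, 2 of 8 strongly marked regions were in the set, and the highest of the 8 had 13.7 CPM in 4HT and 8.92 CPM in EtOH. At Zfp42, also known as Rex1, a region 1097 bp inside the gene had 2.47 CPM in 4HT and 1.08 CPM in EtOH. At Tdgf1, the Nodal co-receptor Cripto, the region 605 bp upstream had 5.94 CPM in 4HT and 2.58 CPM in EtOH.

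The list of FOX and SOX factors had 9 of 19 strongly marked regions in the set (47.4%), all from Foxd3 and Foxn2, and the 5 of 23 of the formative and primed list were those of Foxd3. Chromatin regulators had 6 of 55. Among these, a region 12371 bp upstream of Suz12, a core subunit of Polycomb repressive complex 2, had 7.25 CPM in 4HT and 3.08 CPM in EtOH, and a region in Tet2, a methylcytosine dioxygenase, 6.96 CPM in 4HT and 3.01 CPM in EtOH. Regions of Tet1 and of the acetyltransferase Kat2b had 3.07 and 3.32 CPM in 4HT, against 1.36 and 1.03 CPM in EtOH. Signalling genes had 3 of 44, from Lefty2, a Nodal antagonist (2.88 CPM in 4HT, 0.940 CPM in EtOH), Axin2, a WNT feedback gene (2.34 CPM in 4HT, 1.12 CPM in EtOH), and the Tgif1 promoter (2.07 CPM in 4HT, 0.777 CPM in EtOH). Cell cycle genes had 3 of 15, from Ccna2 (2.198 CPM in 4HT, 0.704 CPM in EtOH) and Cdc25a (2.73 CPM in 4HT, 1.23 CPM in EtOH). Housekeeping genes had 3 of 18, among them Pgk1 and Ppia at 3.73 and 2.49 CPM in 4HT, against 1.47 and 0.985 CPM in EtOH. The p53 targets had 1 of 9, the Aen promoter, with 3.22 CPM in 4HT and 1.03 CPM in EtOH, and immediate early genes 1 of 9, at Ier2. Germ layer and primitive endoderm genes had 0 of 1, and germline and feeder genes had no strongly marked region.

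H2BK120ac was present at nearly all gaining regions. Every one had coverage in at least 1 of the 4 columns, and 680 (83.1%) had it in all 4, against 91.7% of strongly marked regions outside the rule and 25.1% of all regions. The median was 0.928 CPM in TT, 0.895 CPM in TD, 1.18 CPM in ET and 1.001 CPM in ED at gaining regions. It was 1.14, 1.23, 1.41 and 1.29 CPM in the same columns at strongly marked regions outside the rule, and 0.207, 0.148, 0.445 and 0.445 CPM over all regions. The medians of the gaining regions were thus below those of the strongly marked regions outside the rule in each of the 4 columns. These medians amount to a pile-up of 2 or 3 fragments and lie under the limit that a count of 0 allows in each column. By this pile-up, single regions near the median cannot be told from bare ones.

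**Figure D4:**
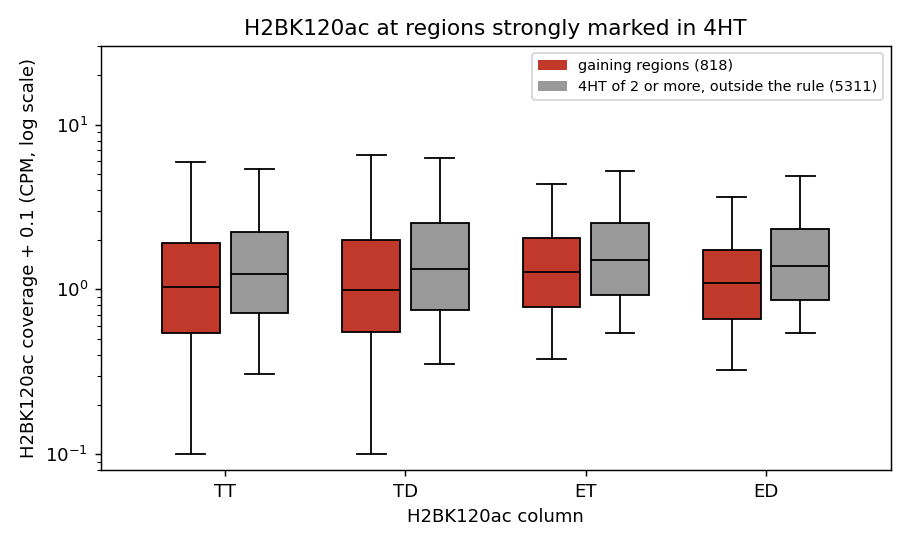
H2BK120ac coverage plus 0.1 (CPM, log scale) in TT, TD, ET and ED at 818 gaining regions (red) and at 5311 strongly marked regions outside the rule (grey). Boxes span the quartiles with the median as a line, and whiskers the 5th to 95th percentile of regions, which are not replicates. The median of the gaining regions is the lower one in each column, such as 1.18 CPM against 1.41 CPM in ET.

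Folds between H2BK120ac columns were taken on log2(value + 0.4), which understates the change of low regions, in regions whose 4 columns averaged 0.4 CPM or more. This kept 777 gaining regions of 818 and 44136 regions in all. A difference of at least 2-fold is called below, and the share of all kept regions that is called stands beside it. Changing the second letter of the code with E first, ET over ED, gaining regions were called higher more often than lower. ET was higher in 103 (13.3%) and lower in 36 (4.63%), against backgrounds of 10.4% and 7.91%, with a median log2 fold of 0.18. Strongly marked regions outside the rule had 6.88% higher and 4.23% lower, with a median of 0.08. With T first, TT over TD, the same letter gave 70 higher (9.01%) and 66 lower (8.49%), against backgrounds of 9.38% and 10.6%, with a median of 0.00. Outside the rule the median was -0.11. Whether the effect of the second letter differs between E and T could not be tested with merged columns.

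Changing the first letter gave wider spreads in both directions, which over kept regions were those of marked regions in general. TD over ED had 187 gaining regions higher (24.1%) and 171 lower (22.0%), against backgrounds of 18.5% and 18.2%, and regions outside the rule had 21.9% and 22.5%. TT over ET had 149 higher (19.2%) and 205 lower (26.4%), against backgrounds of 16.4% and 20.1%, and regions outside the rule had 17.7% and 26.8%. The median log2 folds at gaining regions were -0.03 for TD over ED and -0.26 for TT over ET. 

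In 162 gaining regions the 4 H2BK120ac columns averaged at least 5 fragments, out of 2782 such regions in all. This filter uses the columns compared, so a region that is high in a pair of columns alone can pass through them, and the values describe a selected set. ET over ED was called higher in 31 of them (19.14%) and lower in 7 (4.32%), against backgrounds of 10.4% and 3.85%, with a median log2 fold of 0.32, where regions outside the rule had 0.12. TT over TD was called higher in 9 (5.56%) and lower in 4 (2.47%), against 2.48% and 5.75%. The first-letter medians were of the other sign here, as they were over all 2782 regions. TD over ED was higher in 84 (51.9%) and lower in 33 (20.4%), against 55.1% and 18.5%, with medians of 1.19 in gaining regions and 1.28 in all. Strongly marked regions outside the rule lay lower, with 37.1% higher, 25.4% lower and a median of 0.33. TT over ET was higher in 72 (44.4%) and lower in 42 (25.9%), against 49.6% and 21.6%, with medians of 0.68 in gaining regions and 0.96 in all. Outside the rule 31.5% were higher and 29.5% lower, with a median of -0.02, so the sign did not change there. At this coverage the first-letter folds of gaining regions were thus nearer to those of all regions than to those outside the rule.

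Counting intervals were wide for most regions. For ET over ED the interval lay above 1 in 5 of 777 gaining regions (0.644%) and below 1 in 0. The backgrounds were 0.0816% and 0.0249%, and the shares of strongly marked regions outside the rule 0.267% and 0.0953%. The 5 are named because of these values: regions near Cmklr1, Fn1, Ak7, Lpcat1 and Mms22l. The region in the span of Fn1, the fibronectin gene, had 1.87 CPM in TT, 1.93 CPM in TD, 4.45 CPM in ET and 0.560 CPM in ED. The region in the span of Wscd2, nearest to Cmklr1, had 12.99 CPM in TT, 15.02 CPM in TD, 5.94 CPM in ET and 1.05 CPM in ED. For TT over TD it lay above 1 in 2 gaining regions (0.257%) and below 1 in 3 (0.386%), against backgrounds of 0.0363% and 0.0997%, and 0 regions and 0.248% outside the rule. For TD over ED the interval lay above 1 in 76 gaining regions (9.78%) and below 1 in 37 (4.76%), against backgrounds of 3.65% and 1.07%, and 7.70% and 4.78% outside the rule. For TT over ET it lay above 1 in 53 (6.82%) and below 1 in 41 (5.28%), against backgrounds of 2.72% and 1.48%, and 5.20% and 6.73% outside the rule. By these intervals, over kept regions, the first-letter shares of gaining regions were thus near those of the other strongly marked regions.

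Across all regions the H2BK120ac folds of ET over ED were higher at higher H3K27ac ratios, also outside the rule, while those of TT over TD had no single direction. The 12712 regions with a mean H3K27ac of 1 CPM or more were divided by their ratio of 4HT over EtOH. The median log2 fold of ET over ED was -0.03 in 159 regions with a ratio under 0.5, 0.01 at 0.8 to 1, 0.11 at 1.5 to 2, 0.13 at 2 to 2.5 and 0.19 in 253 regions at 3 or more. The median of TT over TD was below that of ET over ED in the bins from 0.8 upwards but was also higher towards the top, at 0.00 under 0.5, -0.07 at 0.8 to 1, -0.02 at 1.5 to 2, 0.00 at 2 to 2.5 and 0.01 at 3 or more. The share of regions with a fold above 0 was 40.9% under 0.5 and 51.8% at 3 or more for TT over TD, and 47.2% and 60.1% in the same bins for ET over ED. In regions beyond 1 kb of a start site the ET over ED medians ran from -0.02 under 0.5 to 0.24 at 3 or more. Within 1 kb they showed no such order, with 0.10, 0.00 and 0.02 in the bins from 2 upwards, of 165, 56 and 36 regions. The marks come from separate libraries, but the regions of a bin share width and position, so this is a description. Median width was 239 bp under 0.5, 449 bp at 0.8 to 1, 447 bp at 1.5 to 2, 330 bp at 2 to 2.5 and 264 bp at 3 or more.

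**Figure D5:**
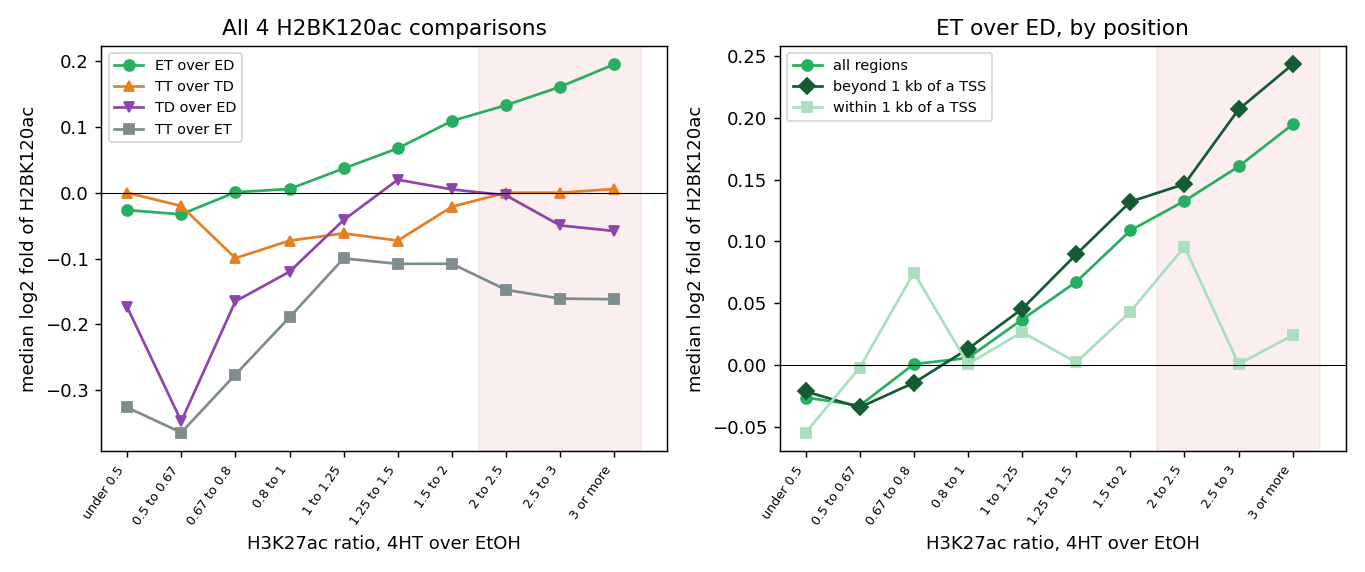
Median log2 fold of H2BK120ac by the H3K27ac ratio of 4HT over EtOH, for regions with a mean H3K27ac of 1 CPM or more. The left panel has the 4 comparisons of columns, and the right panel ET over ED split by distance to a start site. Shading marks ratios of 2 or more, where the gaining regions lie, and ET over ED reaches 0.19 there over all regions and 0.24 beyond 1 kb.

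Promoter and distal gaining regions had different H2BK120ac profiles. The 129 within 1 kb of a start site had medians of 1.19 CPM in TT, 1.23 CPM in TD, 0.690 CPM in ET and 0.593 CPM in ED. The 689 distal ones had 0.880 CPM in TT, 0.850 CPM in TD, 1.30 CPM in ET and 1.11 CPM in ED. TD over ED was called higher in 56 and lower in 1 of 125 kept promoter regions (44.8% and 0.8%), against 25.7% and 4.89% of all kept regions within 1 kb and 45.4% and 1.53% of strongly marked ones outside the rule. In 652 distal regions it was higher in 131 (20.1%) and lower in 170 (26.1%), against 16.4% and 22.1% of all kept distal regions and 15.1% and 28.5% of strongly marked ones outside the rule. The promoter pattern was therefore near that of other strongly marked promoters. The Aen promoter had 3.38 CPM in TT, 4.12 CPM in TD, 0.614 CPM in ET and 0.440 CPM in ED. The Tgif1 promoter had 1.75 CPM in TT, 2.5002 CPM in TD, 0.488 CPM in ET and 0.369 CPM in ED, and in both the T columns stood above the E columns. At the Upp1 promoter the columns were closer, with 2.52 CPM in TT, 4.52 CPM in TD, 2.23 CPM in ET and 2.11 CPM in ED.

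The gaining regions with most H2BK120ac were high in TT and TD. The region in the span of Ranbp3, a Ran-binding protein, nearest to Vmac, had 15.9 CPM in TT, 22.9 CPM in TD, 1.23 CPM in ET and 0.899 CPM in ED. The region in Camsap3, a microtubule minus-end protein, had 16.9 CPM in TT, 20.2 CPM in TD, 1.82 CPM in ET and 0.513 CPM in ED. A region 16165 bp upstream of Gatad2a, a subunit of the NuRD complex, had 13.1 CPM in TT, 20.8 CPM in TD, 2.16 CPM in ET and 0.795 CPM in ED. All 3 lay beyond 1 kb of a start site. Regions near Arglu1, Cmklr1, Rbp7, Rps23rg1, Traf3ip2, Zbtb38 and Ltc4s completed the 10, with TT values of 9.33 to 14.9 CPM, TD values of 13.2 to 18.03 CPM, ET values of 1.66 to 5.94 CPM and ED values of 1.05 to 2.83 CPM. The T columns exceeded the E columns in all 10. These regions were picked by the mean of the 4 columns, so the columns that reach the highest values weigh most. Over all regions the highest values were 37.4 CPM in TT and 45.4 CPM in TD, against 16.7 CPM in ET and 18.5 CPM in ED. Of all 2782 regions averaging at least 5 fragments, 55.1% were called higher in TD than in ED, and 37.1% of the strongly marked ones outside the rule. The pattern is thus not particular to gaining regions.

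The regions with the highest and lowest first-letter folds were picked by those folds, so which columns are high in them is fixed by the choice, and their values are a description. TD over ED was highest at Ier2, an immediate early gene, where the region 1185 bp from the start site had 9.38 CPM in TT, 14.4 CPM in TD, 1.16 CPM in ET and 0.111 CPM in ED, then at Camsap3, Vmac, Gatad2a and Serbp1. TT over ET was highest in Foxn2, in a region with 9.66 CPM in TT, 8.04 CPM in TD, 0.111 CPM in ET and 1.23 CPM in ED, then at Tubb4b, Hnrnpa2b1, Mlf2 and Vmac. At the other end was a region 91522 bp upstream of Spef2, a sperm flagellar gene. It had no coverage in TT or TD, 5.28 CPM in ET and 8.38 CPM in ED. The region near Bmper that led in H3K27ac had 1.20 CPM in TT, 0.643 CPM in TD, 10.8 CPM in ET and 6.32 CPM in ED, and a second 5.70 CPM region beside it had 1.42, 0.212, 7.78 and 4.83 CPM in the same order. The other low ones of TD over ED were near Pja2, Trak1 and Mrps30, and those of TT over ET near Chordc1, Adcyap1 and Ghitm. None of these low regions lay within 1 kb of a start site.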

How the data were processed

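H3K27ac and H2BK120ac were measured by CUT&Tag in FOXD3-iKO mESCs. The deposited values are coverage signal, named CPM by the authors, in 127646 regions of 1 table per mark, and per the file headers the replicates of a group were merged. Coordinates are on mm10, per the submitters' processing notes, which for H3K27ac also list featureCounts and DESeq2 with no role. The aligner was not given in the sources used here, nor were the coverage tool and the rule that set the regions. A missing value was counted as 0. Because no deposited value is 0, the mean of a region is taken to skip its uncovered bases, so sparse regions read high. The tables of the marks were scaled separately and are compared only within a mark. A further 16 columns named IgG match no sample and were used in no step. Of the IgG tables, only window positions around start sites were read.

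The members, gene lists, motifs and comparisons were chosen with earlier results of these data known. The planned limma fit needs separate replicates, so values, folds and exact Clopper-Pearson intervals are given in its place, and the steps were tested on simulated data. The simulation drew its counts on the same pile-up scale, so it did not test the use of pile-up as a count. Intervals are not adjusted for the number of regions. Start sites came from RefSeq promoter windows on GRCm38.p6 for 17491 genes, from the end of the gene span nearest to a deposited window for 3997, and were not set for 408. Where both could be had, the strand agreed in 96.35% of 2000 genes checked. Exons and untranslated regions are not annotated here. Named regions are the 10 highest in 4HT, in ratio and in mean H2BK120ac, those at each limit of the rule, the strongest of each listed gene (a few are not reported here), those of the genes with most regions, those within 100 kb of Foxd3, and the 5 highest and 5 lowest first-letter folds among regions with at least 5 fragments. Other regions of a named gene were chosen after their values were seen. Python 3.11.15, numpy 2.4.6, pandas 2.3.3, SciPy 1.17.1 and matplotlib 3.10.9 were used. Alternatives to the rule, scaling, width, pseudocount and coverage filter were tried.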

Additional observations from a re-analysis of the deposited data

Results flagged for a closer look

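In the 162 gaining regions whose H2BK120ac columns averaged at least 5 fragments, the median log2 fold was 0.32 for ET over ED and -0.0696 for TT over TD, of opposite signs. The signs were also opposite in the regions of that coverage that were strongly marked outside the rule (0.12 and -0.20) and in all 2782 of that coverage (0.17 and -0.17), so this is not particular to the gaining regions. The difference was not tested, because each group has 1 merged column. Both folds were at least 2-fold and opposite in 1 of these 162 regions (0.617%), against 0.647% of the 2782 and 0.553% of those outside the rule. They were so in 15 of the 777 kept gaining regions (1.93%), against 1.74% of all kept regions. Among kept strongly marked regions outside the rule, the share was lower, at 0.724%.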

How the results depend on the processing

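In 14 results under 18 alternatives, 155 of 214 values stayed within the counting error of the value reported (for the number of regions, within 1.5 times), 57 moved with the same sign or from 0, and 2 moved past 0. The number of regions followed the rule: 818 became 352 with a minimum of 3 in 4HT, 2293 at 1.5-fold, 150 at 3-fold, 349 with H3K27ac median centring, 221 with quantile normalization and 457 among regions at least as wide as the median. All 349 and all 221 were among the 818, and 3 and 1 of the 5 regions near Foxd3 were kept in these. The share within 1 kb of a start site (15.8%) was 12.2%, 21.8%, 11.3%, 12.3%, 12.2% and 20.4% under these 6, and 12.5% and 19.8% with limits of 500 bp and 2 kb.

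For ET over ED (median 0.18, 13.3% higher, 4.63% lower), the minimum of 3 gave 2.61% lower, 1.5-fold gave 10.3% higher, 3-fold gave a median of 0.30 and 22.3% higher, quantile H3K27ac a median of 0.27 and 17.4% higher, and wide regions 9.09% higher and 2.95% lower. A halved pseudocount gave 17.2% higher, a doubled one 6.56% higher and 2.32% lower, at least 5 fragments a median of 0.32 and 19.14% higher, and quantile H2BK120ac a median of 0.11 and 7.24% lower. The median stayed above 0 in all 16 alternatives run on it.

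For TT over TD (median 0.00, 9.01% higher, 8.49% lower), the minimum of 3 gave 6.38% higher, 1.5-fold 6.47% higher, and 3-fold a median of 0.0171, 11.5% higher and 6.15% lower. A halved pseudocount gave 12.0% higher and 10.9% lower, a doubled one 2.70% and 2.45%, at least 5 fragments a median of -0.0696, 5.56% and 2.47%, and quantile H2BK120ac a median of 0.0155 and 5.30% lower.

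For TD over ED (median -0.03, 24.1% higher, 22.0% lower), centred H3K27ac gave a median of -0.15 and 25.2% lower, wide regions 20.7% higher, a halved pseudocount 25.7% lower, a doubled one 19.05% higher and 16.5% lower, and at least 5 fragments a median of 1.19 and 51.9% higher. For TT over ET (median -0.26, 19.2% higher, 26.4% lower), centred H3K27ac gave a median of -0.37 and 33.1% lower, quantile H3K27ac 31.3% lower, a halved pseudocount 30.9% lower, a doubled one 15.6% higher and 18.4% lower, and at least 5 fragments a median of 0.68 and 44.4% higher. These 2 medians changed sign with the coverage filter, as they do over all regions, and the cause was not tested. Outside the rule the TT over ET median stayed below 0, at -0.23 in kept regions and -0.02 with at least 5 fragments. The TD over ED median, near 0 as reported, was also above 0 with the minimum of 3 (0.07), at 1.5-fold (0.01) and with H2BK120ac median centring (0.03), 4 of 16 alternatives in all, so it has no stable sign.

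Leaving out chromosome 9 or the X chromosome, chosen after seeing the data, moved no result. No paired analysis was possible because the replicates are merged, and leaving out a replicate was not run for the same reason. With a median pile-up of 14 fragments in 4HT and 7 in EtOH, intervals from these pile-ups do not place most single regions firmly on either side of the 2-fold limit.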

Other observations

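Within 5 kb of a gaining region lay 15 miRNA hairpins, at 8 regions. The same count was not made for other regions, so it shows no tendency of this set. One region, chr7:3222901-3223126, lay 2060 bp from the hairpin of Mir295, in the Mir290 cluster, the most abundant miRNAs of mESCs. Several of the 15 hairpins belong to this cluster and lay beside this same region. The region had 2.58 CPM of H3K27ac in 4HT and 1.15 CPM in EtOH, and 1.17 CPM of H2BK120ac in TT, 0.412 CPM in TD, 0.223 CPM in ET and 0.461 CPM in ED. Its TD, ET and ED values lay near or below that of 1 fragment. The region 17 bp from Mir7655 had 3.06 CPM of H3K27ac in 4HT and 1.36 CPM in EtOH.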
